A study of Saccharomyces cerevisiae S288C with 18 samples.

Results

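The genes described here are 35 enzymes and regulators of glycolysis, gluconeogenesis, the glyoxylate cycle and glycerol synthesis in *S. cerevisiae*, taken by name from the 6692 genes of the deposited count table. All 35 were found, and 34 passed the filter on low counts, a minimum of 7 CPM in 6 libraries (HiSeq) or 3 (NextSeq). CPM is a gene's count scaled to the depth of its library. The exception was PDC6 (YGR087C), a minor pyruvate decarboxylase, which stayed at or below 9.43 CPM in every library. Cells labelled as strain S288C were grown in RPMI-1640 medium at 30 °C, and RNA-seq was done on 18 cultures in 6 groups of 3 biological replicates. The AMB group received 0.03 µg/mL amphotericin B, a polyene antifungal that binds ergosterol, for 60 minutes, and its untreated control was grown for the same time. The AMB-LF group received 0.03 µg/mL amphotericin B with 2 µg/mL bovine lactoferrin, an iron-binding milk protein, for 50 minutes, beside its own untreated control of 50 minutes. The LF group received 2 µg/mL lactoferrin alone for 50 minutes, again beside a separate untreated control. The comparisons ask how each treatment changed the members relative to its own control, and whether the responses to AMB and AMB-LF differed.

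Glycolysis converts glucose to pyruvate, which fermenting yeast decarboxylates to acetaldehyde and then reduces to ethanol. Many of its steps are carried out by pairs or trios of near-identical isozymes, 1 of them usually dominant on glucose and another expressed more at slow growth or under stress. Gluconeogenesis runs the pathway in reverse from oxaloacetate, which pyruvate carboxylase also supplies as a precursor of amino acids, and its dedicated enzymes are repressed by glucose. Glycerol is made from the glycolytic intermediate dihydroxyacetone phosphate, and serves yeast as an osmolyte and as a sink for reducing power.

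The 12 HiSeq libraries of AMB, AMB-LF and their controls held 6799569 to 9696467 counts on genes, and the 6 NextSeq libraries of LF and its control held 23925944 to 30172836. The HiSeq libraries were spread over 2 lanes, but all 3 control libraries for AMB-LF were in lane 1, and so was only replicate 1 of AMB-LF. Lane 1 also held AMB replicates 1 and 2 and control replicate 1 for AMB. In lane 2 were AMB replicate 3 and control replicates 2 and 3 for AMB. A treatment set against its control within a lane thus leaves a single library in a group. Fewer of all genes were called in these fits, so a call lost within a lane is not particular to a member. The sources are not uniform on the HiSeq controls. The sample characteristics used here, the study's methods and its table of the experiments give 60 minutes for the control for AMB and 50 minutes for the control for AMB-LF, while the growth protocol gives these durations the other way round and an ordination plot of the study names the control groups in the opposite way. The responses of the members are therefore also given below with the controls exchanged and with the 6 untreated HiSeq libraries taken as 1 control. The libraries also did not show the mating type of S288C, which is a MATalpha strain: over all 18 libraries the a-specific genes STE2 and MFA1 lay between 631 and 1049 CPM and between 231 and 516 CPM, and the alpha-specific genes MFALPHA1 and STE3 between 0.125 and 0.810 CPM and between 5.09 and 11.2 CPM. The replicates are called biological, but for the HiSeq groups the sources used here do not say whether they came from separate inocula or days, so p-values measure the spread between these cultures.

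Because several members are near-identical copies, the sequences decide how far their reads can be told apart. All 35 coding sequences are 1 exon each in the R64 annotation. TDH2 (YJR009C, chrX:453683-454681, minus strand) and TDH3 (YGR192C, chrVII:882812-883810, minus strand) had 95.8% identical coding bases and differed at 42 positions, with a longest run of 173 bases without a difference. TDH1 (YJL052W, chrX:338271-339269, plus strand) shared 90.2% of its bases with TDH2 and 88.9% with TDH3. Of all possible 100-base windows, the HiSeq read length, 12.8% of those in TDH2, 8.22% in TDH3 and 4.56% in TDH1 occurred at another place in the genome. The 60 bases of coding sequence in which TDH2 and TDH3 differ most (12 positions, bases 64 to 123 counted from the start codon) are printed to show what sets the reads of the copies apart, and capitals mark the 21 positions that are not the same in all 3 genes.
TDH1 chrX:338334-338393 (plus strand): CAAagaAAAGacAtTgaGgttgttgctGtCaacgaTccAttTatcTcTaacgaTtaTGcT
TDH2 chrX:454559-454618 (minus strand): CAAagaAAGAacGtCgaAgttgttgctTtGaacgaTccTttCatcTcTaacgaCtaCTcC
TDH3 chrVII:883688-883747 (minus strand): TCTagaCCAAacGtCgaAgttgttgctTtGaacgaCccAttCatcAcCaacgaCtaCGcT
The enolase genes ENO1 (YGR254W, chrVII:1000927-1002240, plus strand) and ENO2 (YHR174W, chrVIII:451327-452640, plus strand) had 94.8% identical coding bases, and 2.72% of the 100-base windows of each occurred in the other. Their most different 60 bases (bases 340 to 399 of the coding sequence) hold 13 differences, again in capitals.
ENO1 chrVII:1001266-1001325 (plus strand): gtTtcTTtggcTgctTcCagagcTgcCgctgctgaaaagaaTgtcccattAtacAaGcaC
ENO2 chrVIII:451666-451725 (plus strand): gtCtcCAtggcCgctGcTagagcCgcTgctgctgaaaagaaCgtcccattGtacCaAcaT
PYC1 and PYC2 shared 3.17% and 3.16% of their 100-base windows. The other members had no 100-base window in common with another place in the genome, and no 75-base window, the NextSeq read length. Of the 75-base windows 18.9% in TDH2, 12.6% in TDH3 and 9.84% in TDH1 occurred elsewhere. The share was 10.7% in ENO1 and ENO2, 5.26% in PYC1 and 5.25% in PYC2. Trimmed reads can be shorter than these windows and were not examined. For TDH1, TDH2, TDH3, ENO1, ENO2, PYC1 and PYC2 a part of the counts may have been exchanged between copies. GLK1 overlaps the reading frame YCL042W by 106 bases, and reads in such overlaps were not counted by the authors.

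Under AMB, 12 of the 34 tested members passed the test of the fit across all genes (edgeR quasi-likelihood test, Benjamini-Hochberg adjusted p under 0.05), of which 6 increased and 6 decreased. Over all 5456 genes tested 18.7% increased and 18.4% decreased, against 17.6% in each direction for the members. Under AMB-LF 4 members increased and 12 decreased, which is 11.8% and 35.3% of the members, against 14.1% and 15.1% of all genes. The median log2 fold change of the members was -0.04 under AMB and -0.26 under AMB-LF, against -0.02 and -0.01 over all genes. Counted by library rather than by test, the 3 treated and 3 control libraries did not overlap for 20 of 34 members under AMB (53.7% of all genes) and for 19 of 34 under AMB-LF (50.8% of all genes), shares near those of the whole table. In all, 5 members decreased under both treatments (TDH1, TDH2, ENO1, PDC1 and GPP1) and 3 increased under both (PYC2, PCK1 and PDC5). No member was called in opposite directions. The changes lay at separate points of the pathway, as the plot of all fold changes shows. Most enzymes of upper glycolysis did not pass, TDH1, TDH2 and ENO1 of lower glycolysis fell, and 2 enzymes on the way from pyruvate to phosphoenolpyruvate rose. Without scaling factors beyond library size the median of all genes under AMB-LF moved to -0.10 and that of the members to -0.36. Leaving out 1 library could lower the calls over all genes, and not only those of the members. Without AMB-LF replicate 1, 301 genes were higher and 172 lower under AMB-LF, against 770 and 825 in the main fit. Without control replicate 1 for AMB, 554 were higher and 421 lower under AMB, against 1019 and 1005.

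**Figure D1:**
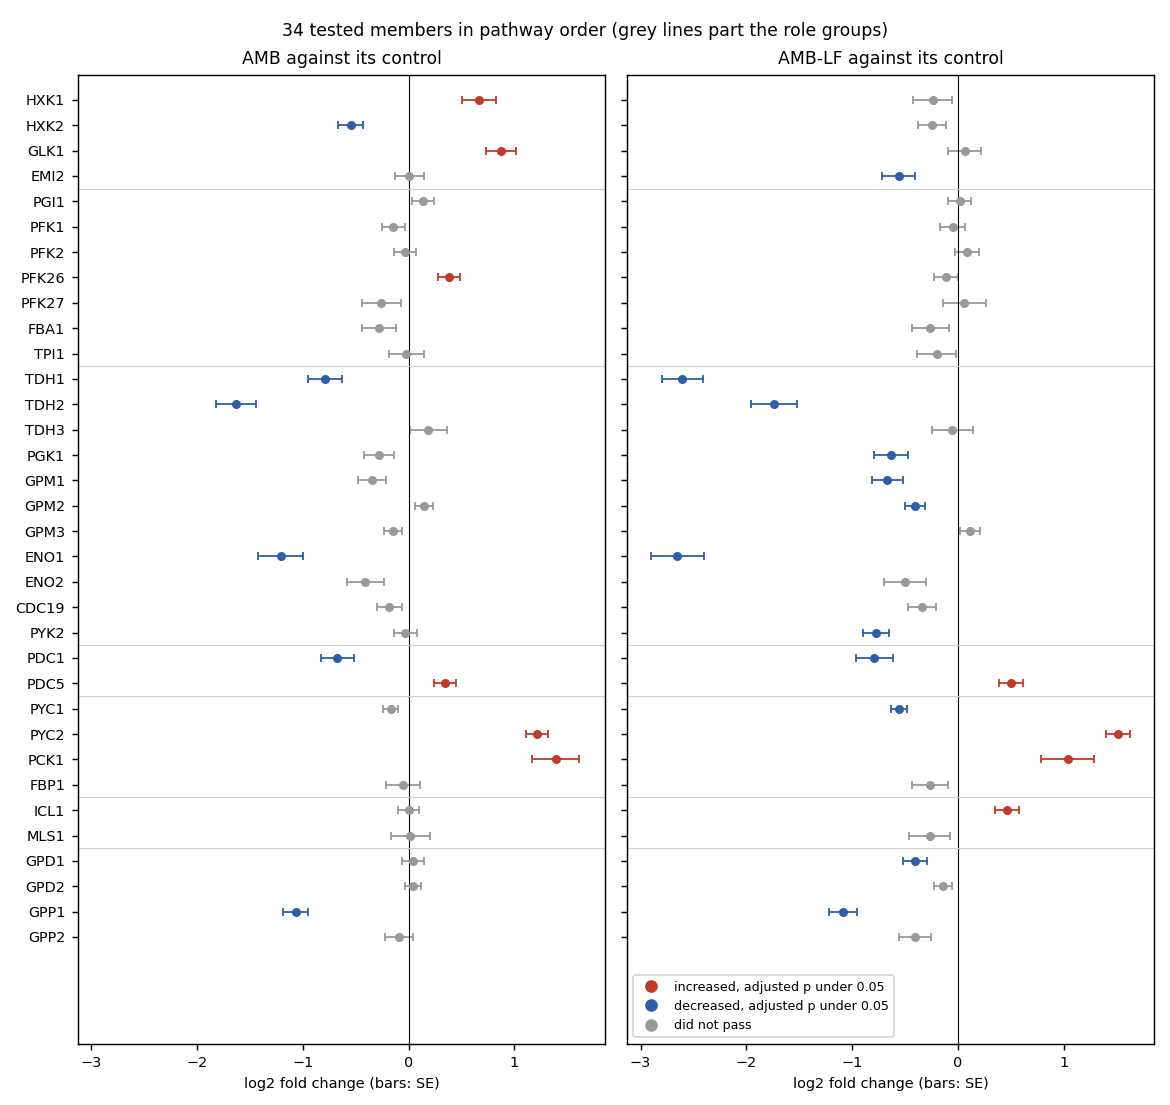
Log2 fold change of the 34 tested members under AMB (left) and AMB-LF (right), each against its own control, in pathway order from hexose phosphorylation at the top to glycerol synthesis at the bottom; bars are standard errors and colours give the outcome of the edgeR test over all 5456 genes. ENO1 and TDH1 lie farthest left under AMB-LF at -2.65 and -2.60, TDH2 at -1.63 under AMB and -1.74 under AMB-LF, and PYC2 and PCK1 lie right of 1 in both panels.

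The first step, phosphorylation of glucose, is carried out by the hexokinases HXK1 (YFR053C) and HXK2 (YGL253W), the glucokinase GLK1 (YCL040W) and the related EMI2 (YDR516C). HXK2, the main hexokinase on glucose, also acts in glucose repression, while HXK1 and GLK1 are expressed more when glucose is scarce. Under AMB the 2 genes of poor-glucose growth rose and HXK2 fell. GLK1 had 2540, 2855 and 2313 CPM in the AMB libraries, against 1398, 1210 and 1584 CPM in the control for AMB. HXK1 had 2188, 2753 and 2268 CPM under AMB, against 1598, 1251 and 1735 CPM in the control for AMB. The AMB libraries were above all controls for both genes, with log2 fold changes of 0.87 ± 0.14 (SE; edgeR adjusted p = 0.00082) for GLK1 and 0.67 ± 0.16 (edgeR adjusted p = 0.0082) for HXK1. HXK2 fell by 0.55 ± 0.12 on the log2 scale (edgeR adjusted p = 0.0045), with 754 to 840 CPM under AMB and 1082 to 1233 CPM in the control for AMB.

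Under AMB-LF neither GLK1 nor HXK1 passed. GLK1 had 2283, 2459 and 2586 CPM in the AMB-LF libraries, against 2228, 2671 and 2192 CPM in the control for AMB-LF, a difference of 0.07 ± 0.15 on the log2 scale. HXK1 had 1915, 2253 and 2653 CPM under AMB-LF, against 2762, 2514 and 2608 CPM in the control for AMB-LF. The treated libraries of both treatments thus lay in the same range, while the control for AMB-LF was above the control for AMB in every library. The member of this group that passed was EMI2, which fell by 0.56 ± 0.15 on the log2 scale (edgeR adjusted p = 0.019). The calls of HXK1 and GLK1 under AMB were lost with the controls exchanged (log2 fold changes of -0.14 and 0.13) and with the pooled control (0.23 and 0.47). That of EMI2 under AMB-LF was lost without AMB-LF replicate 1 (-0.38), with the replicate block and with the pooled control (-0.11). With the controls exchanged EMI2 became 0.17. Within lane 1 and lane 2 HXK1 gave 0.61 and 0.62 under AMB and did not pass, while GLK1 passed in both (0.93 and 0.75).

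Upper glycolysis splits fructose-1,6-bisphosphate into triose phosphates, and few of its enzymes passed the test. Of PGI1, PFK1, PFK2, PFK26, PFK27, FBA1 and TPI1, only PFK26 passed under AMB and none passed under AMB-LF, where the 7 log2 fold changes lay between -0.26 and 0.09. PFK26 (YIL107C) makes fructose-2,6-bisphosphate, the activator of phosphofructokinase. It had 134.5, 153 and 136.5 CPM under AMB, against 99.1, 109 and 123.5 CPM in the control for AMB, a rise of 0.38 ± 0.10 on the log2 scale (edgeR adjusted p = 0.015). It was lost without AMB replicate 2 (0.31), without control replicate 1 for AMB (0.27) and within either lane (0.52 and 0.25). It was also lost with the pooled control (0.11), and with the controls exchanged, where it was -0.13. The phosphofructokinase subunits PFK1 (YGR240C) and PFK2 (YMR205C) gave -0.15 ± 0.11 and -0.04 ± 0.10 under AMB, and -0.05 ± 0.12 and 0.09 ± 0.11 under AMB-LF. FBA1 (YKL060C), the aldolase, had log2 fold changes of -0.28 ± 0.16 and -0.26 ± 0.17 in the same order and did not pass. Its AMB libraries (10988 to 12576 CPM) were nevertheless all below their controls (13872 to 14850 CPM). Those of PGI1 (1890 to 2050 CPM) were all above theirs (1759 to 1815 CPM). Under AMB 53.7% of all genes did not overlap.

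Lower glycolysis held the largest decreases. The 3 glyceraldehyde-3-phosphate dehydrogenases TDH1, TDH2 and TDH3 oxidise the triose phosphate, and TDH3 is the main one. TDH2 had 1172, 1248 and 949.7 CPM in the AMB libraries, against 3410, 3434 and 3504 CPM in the control for AMB, a 0.32-fold level (log2 fold change -1.63 ± 0.19, edgeR adjusted p = 7.5e-05). It had 1227, 1051 and 1767 CPM in the AMB-LF libraries, against 4189, 4663 and 4892 CPM in the control for AMB-LF (-1.74 ± 0.21, edgeR adjusted p = 0.00014). Every treated library was thus below every control library, under both treatments. Within lane 1 alone TDH2 gave -1.51 under AMB and -1.91 under AMB-LF, and within lane 2 it gave -1.85 under AMB. It kept its call under all 26 alternatives for AMB and all 25 for AMB-LF, between -2.02 and -1.44 for AMB and between -1.92 and -1.35 for AMB-LF.

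TDH1, the isozyme known for expression in stationary phase and under stress, had 853, 930 and 860 CPM in the AMB libraries, against 1677, 1323 and 1502 CPM in the control for AMB. In the AMB-LF libraries it had 694, 749.5 and 731 CPM, against 4479, 5675 and 3519 CPM in the control for AMB-LF. The fall was -0.79 ± 0.16 under AMB (edgeR adjusted p = 0.0032) and -2.60 ± 0.19 under AMB-LF (edgeR adjusted p = 2.3e-06) on the log2 scale. The treated cultures again sat close together, and the distance between the 2 fold changes came with a distance between the 2 controls. The fall under AMB lost its call in lane 1 alone (-0.93, edgeR adjusted p = 0.088) and without control replicate 1 for AMB (-0.67). TDH3 did not pass under either treatment, with 23794 to 27353 CPM under AMB and 22005 to 22809 CPM in its control, and 22711 to 27840 CPM under AMB-LF and 23058 to 27282 CPM in its control. Its log2 fold changes were 0.19 (95% interval -0.19 to 0.56) and -0.05 (-0.47 to 0.37).

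The 2 enolases, which make phosphoenolpyruvate, showed the same split. ENO1, the copy less dependent on glucose, had 1072, 1321 and 886 CPM in the AMB libraries, against 2576, 2349 and 2706 CPM in the control for AMB (-1.21 ± 0.21, edgeR adjusted p = 0.0012). In the AMB-LF libraries it had 742, 1001 and 1144 CPM, against 5308, 7336 and 5306 CPM in the control for AMB-LF (-2.65 ± 0.25, edgeR adjusted p = 1.7e-05), which is a 0.16-fold level. No treated library reached any control library. Within lane 1 the fall under AMB was -1.13 with an edgeR adjusted p of 0.051. ENO2, the copy that dominates on glucose, had log2 fold changes of -0.41 ± 0.18 and -0.50 ± 0.20 and did not pass (edgeR adjusted p = 0.09 and 0.079). Its AMB libraries (6589 to 7833 CPM) were nevertheless all below their controls (9182 to 10401 CPM), while its AMB-LF libraries (6899 to 9562 CPM) overlapped theirs (9178 to 11999 CPM).

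**Figure D2:**
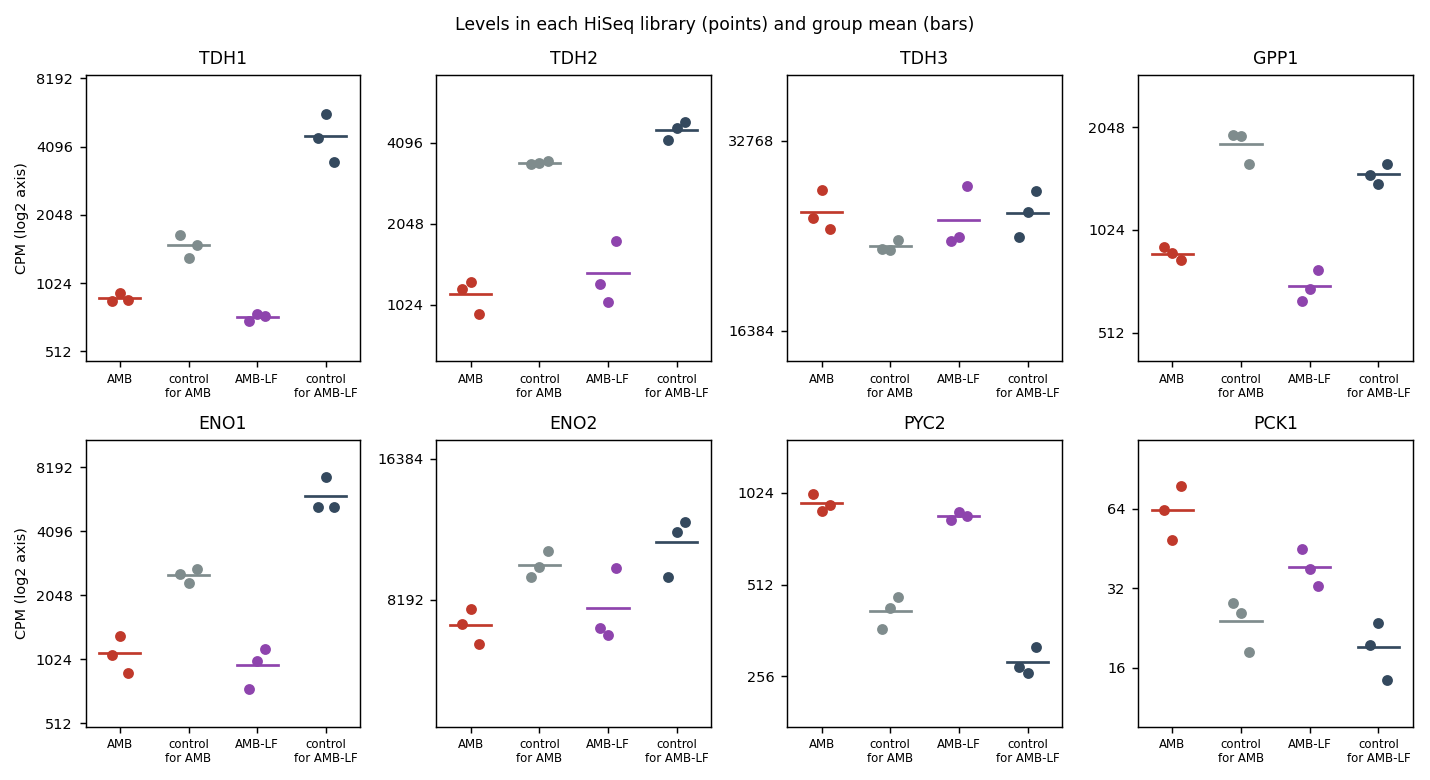
CPM on a log2 axis of 8 members in each HiSeq library, by group; points are the 3 libraries of a group and horizontal bars their mean. For TDH1, TDH2, ENO1 and GPP1 all treated libraries lie below all controls, for PYC2 and PCK1 all lie above, and for TDH1 and ENO1 the control for AMB-LF (3519 to 5675 CPM for TDH1) stands above the control for AMB (1323 to 1677 CPM).

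Of the other 6 members of lower glycolysis, none passed under AMB and 4 fell under AMB-LF. The phosphoglycerate kinase PGK1 (YCR012W) fell by 0.63 ± 0.16 and the main phosphoglycerate mutase GPM1 (YKL152C) by 0.67 ± 0.15 on the log2 scale under AMB-LF (edgeR adjusted p = 0.014 and 0.0062). The pyruvate kinase isozyme PYK2 (YOR347C), which is repressed by glucose, had 53.6, 62.3 and 55.3 CPM in the AMB-LF libraries, against 103, 102.5 and 96.0 CPM in the control for AMB-LF (-0.77 ± 0.12, edgeR adjusted p = 0.00078). GPM2 (YDL021W), a mutase homologue of uncertain function, had 82.9, 85.1 and 80.3 CPM in the AMB-LF libraries, against 114, 120 and 97.4 CPM in the control for AMB-LF (-0.41 ± 0.10, edgeR adjusted p = 0.009). These 2 genes were also separated between the groups under AMB-LF, but not under AMB, where PYK2 gave -0.03 ± 0.11 and GPM2 0.14 ± 0.09. Though not called, PGK1 had 3135 to 3560 CPM under AMB, all below its control (3791 to 4311 CPM). The same held for GPM1 (1885 to 2185 CPM, against 2382 to 2744 CPM) and CDC19 (1682 to 1888 CPM, against 1901 to 2222 CPM). Under AMB 53.7% of all genes did not overlap. The main pyruvate kinase CDC19 (YAL038W) gave -0.18 ± 0.12 under AMB and -0.34 ± 0.13 under AMB-LF, and GPM3 (YOL056W) -0.15 ± 0.09 and 0.11 ± 0.09. With the controls exchanged the AMB-LF calls of PGK1 (-0.26), GPM1 (-0.27), GPM2 (0.11) and PYK2 (-0.10) were all lost, and under AMB all 4 were then called lower. The pooled control also lost these AMB-LF calls (-0.40, -0.42, -0.09 and -0.36 in the same order). With it GPM1 was called lower under AMB (-0.56, edgeR adjusted p = 0.024). Without AMB-LF replicate 1, the only AMB-LF library in lane 1, the AMB-LF calls of PGK1 (-0.47), GPM1 (-0.54) and GPM2 (-0.36) were lost as well. Calls over all genes also fell in that fit, to 301 higher and 172 lower.

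Set against each other per kilobase of coding sequence, the most abundant copy held a larger share of the TDH, ENO and PYC families in the treated libraries, and a smaller one of the phosphoglycerate mutases, pyruvate decarboxylases and glycerol-1-phosphatases. TDH3 made up 92.7% ± 0.26 of the CPM per kilobase of the 3 TDH genes in the AMB libraries (SD, n = 3), against 81.8% ± 0.48 in the control for AMB, and 92.2% ± 0.50 in the AMB-LF libraries, against 73.4% ± 2.8 in the control for AMB-LF. The share of TDH2 was 4.11% under AMB, against 12.7% in its control, and 5.01% under AMB-LF, against 13.3% in its control. ENO1 had 13.04% ± 1.3 of the enolase level under AMB, against 20.7% ± 1.1 in the control for AMB, and 10.9% ± 1.6 under AMB-LF, against 35.5% ± 4.4 in the control for AMB-LF. In pyruvate carboxylase PYC1 had 9.65% ± 0.56 of the family level under AMB, against 21.9% ± 0.83 in the control for AMB, and 10.1% ± 0.61 under AMB-LF, against 31.9% ± 3.0 in the control for AMB-LF. Among the hexose kinases HXK2 had 13.1% ± 1.6 under AMB, against 26.8% ± 3.2 in the control for AMB, but 15.97% ± 0.77 under AMB-LF, against 16.7% ± 2.3 in the control for AMB-LF. In the other direction, GPM1 had 94.3% of the mutase level under AMB, against 95.5% in the control for AMB, and 94.3% under AMB-LF, against 95.9% in the control for AMB-LF. PDC1 had 99.4% of the pyruvate decarboxylase level under either treatment, against 99.7% in either control, and GPP1 had 14.9 points less under AMB and 10.7 points less under AMB-LF than in the control of each. Of 19 shares compared, the libraries did not overlap for 17 under AMB and 13 under AMB-LF, and for 0 under LF. In the larger families every gene is counted and their shares sum to the whole, so the 19 are not separate items. For the levels of all single genes, 53.7% did not overlap under AMB, 50.8% under AMB-LF and 2.96% under LF. Shares were not computed beyond these families. With 3 libraries against 3 the exact two-sided permutation test gives p = 0.1 at best, and adjusted over the 57 shares the smallest p was 0.19.

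**Figure D3:**
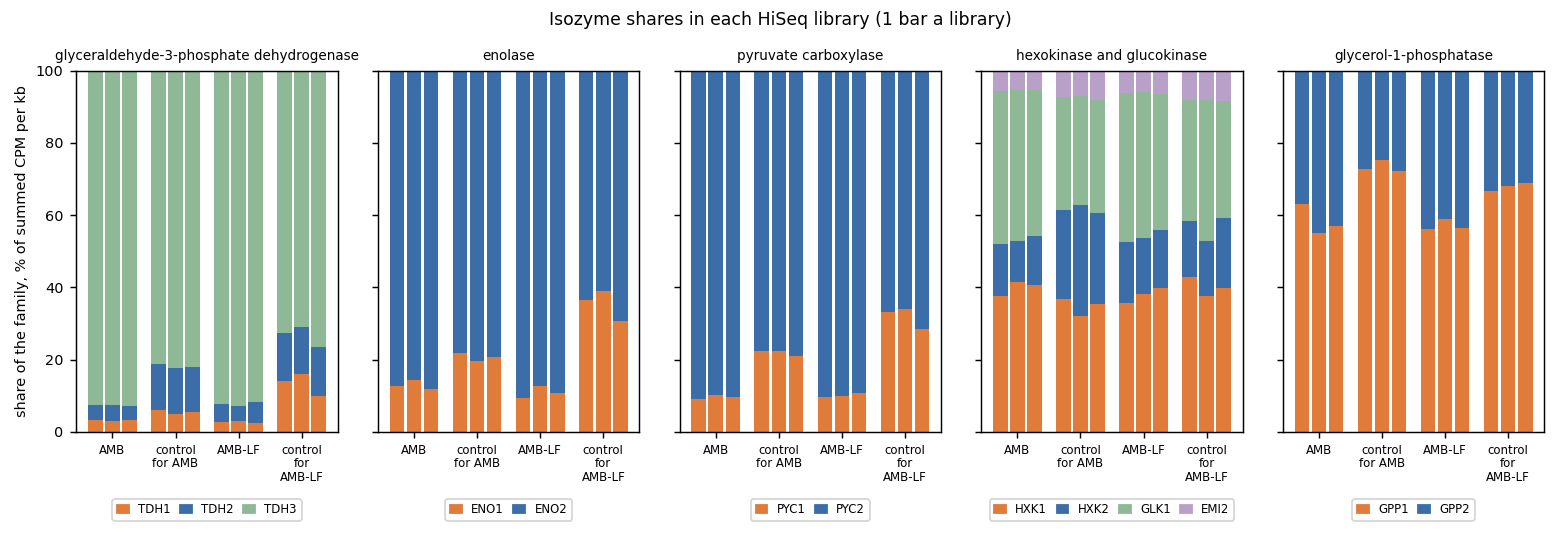
Share of each isozyme in the summed CPM per kilobase of its family, 1 bar per HiSeq library in the order of the replicates. TDH3 fills 91.8% to 92.9% of the TDH bars in the treated groups and 71.0% to 82.2% in the controls, and the ENO1 and PYC1 segments are smaller in every treated library than in any control library.

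Pyruvate decarboxylase commits pyruvate to ethanol. PDC1 (YLR044C), its main gene, fell under both treatments, with 5949, 6506 and 6260 CPM in the AMB libraries, against 9343, 10894 and 11123 CPM in the control for AMB (-0.67 ± 0.16, edgeR adjusted p = 0.0069). In the AMB-LF libraries it had 5536, 5896 and 7975 CPM, against 9984, 9351 and 11255 CPM in the control for AMB-LF (-0.79 ± 0.18, edgeR adjusted p = 0.0071). All treated libraries were below all controls. The call under AMB was lost within lane 1 (-0.61) and within lane 2 (-0.80), fits that leave a single library in a group. It was also lost without AMB replicate 3 (-0.56) and without control replicate 1 for AMB (-0.71). The call under AMB-LF was lost within lane 1 (-0.89), with the 6 libraries of the comparison alone and without AMB-LF replicate 1 (-0.64). PDC5 (YLR134W), the copy known to rise when PDC1 is lost, increased at a far lower level. It had 27.8 to 36.6 CPM under AMB and 22.1 to 26.2 CPM in its control (0.34 ± 0.11, edgeR adjusted p = 0.025), and 34.9 to 36.7 CPM under AMB-LF and 25.2 to 27.4 CPM in its control (0.50 ± 0.11, edgeR adjusted p = 0.0072). The rise of PDC5 under AMB was lost in 8 of 26 alternatives, among them those without AMB replicate 1, without control replicate 1 (0.27) and without control replicate 2 for AMB. Its rise under AMB-LF was lost without AMB-LF replicate 1 (0.58), within lane 1 (0.46) and with the 6 libraries of the comparison alone.

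Pyruvate carboxylase and phosphoenolpyruvate carboxykinase rose. PYC2 (YBR218C, chrII:658707-662249, minus strand) had 1018, 892 and 931 CPM in the AMB libraries, against 366, 428 and 465 CPM in the control for AMB, a 2.32-fold level (1.21 ± 0.11, edgeR adjusted p = 8.5e-06). It had 835.5, 883 and 857 CPM in the AMB-LF libraries, against 275, 263 and 321 CPM in the control for AMB-LF, a 2.86-fold level (1.52 ± 0.12, edgeR adjusted p = 3.4e-06). PYC2 was above every control in every treated library and kept its call under all alternatives, between 1.08 and 1.69 for AMB and between 1.04 and 1.61 for AMB-LF. Its paralogue PYC1 (YGL062W) fell under AMB-LF, with 88.1, 96.7 and 103 CPM, against 136, 136 and 128 CPM in the control for AMB-LF (-0.56 ± 0.07, edgeR adjusted p = 0.00024), and did not pass under AMB (-0.17 ± 0.07, edgeR adjusted p = 0.066). PYC1 was, however, called lower under AMB with the controls exchanged (-0.44) and with the pooled control (-0.31), with edgeR adjusted p of 0.00041 and 0.021. Under AMB-LF it stayed called with both (-0.29 and -0.39).

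PCK1 (YKR097W, chrXI:631152-632801, plus strand) encodes phosphoenolpyruvate carboxykinase, the first enzyme of gluconeogenesis proper, which glucose represses strongly. It had 63.3, 48.7 and 77.8 CPM in the AMB libraries, against 28.0, 25.8 and 18.3 CPM in the control for AMB (1.39 ± 0.22, edgeR adjusted p = 0.00076). It had 44.9, 37.8 and 32.6 CPM in the AMB-LF libraries, against 19.5, 23.6 and 14.4 CPM in the control for AMB-LF (1.04 ± 0.25, edgeR adjusted p = 0.0099). The groups did not overlap under either treatment, but the level stayed low: per kilobase PCK1 ranked 30 of 35 members under AMB and 31 of 35 in the control for AMB. The call was lost within lane 1 under AMB (0.98). Under AMB-LF it was lost without AMB-LF replicate 1 (0.80) and with the replicate block. FBP1 (YLR377C), the fructose-1,6-bisphosphatase that also belongs to gluconeogenesis alone, did not pass, with 11.3 to 11.8 CPM under AMB and 9.70 to 15.3 CPM in its control, and 10.7 to 12.1 CPM under AMB-LF and 12.7 to 13.9 CPM in its control. Of the glyoxylate cycle, which lets cells grow on acetate and other carbon sources of 2 atoms, isocitrate lyase ICL1 (YER065C) rose under AMB-LF. It had 88.0, 91.8 and 85.4 CPM, against 62.9, 65.7 and 63.5 CPM in the control for AMB-LF (0.47 ± 0.11, edgeR adjusted p = 0.01). The call of ICL1 was lost with the controls exchanged (0.11), with the pooled control (0.24) and with the replicate block. It was also lost within lane 1 (0.45) and without AMB-LF replicate 1 (0.51). Under AMB its log2 fold change was 0.00 ± 0.10. Malate synthase MLS1 (YNL117W) gave 0.01 ± 0.18 and -0.27 ± 0.19.

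Glycerol is made by the glycerol-3-phosphate dehydrogenases GPD1 and GPD2 and the phosphatases GPP1 and GPP2, where GPD1 and GPP2 are known for induction by osmotic stress and GPP1 and GPD2 for growth without oxygen. GPP1 (YIL053W, chrIX:255115-255867, plus strand) had 910, 873 and 835 CPM in the AMB libraries, against 1946, 1925 and 1602 CPM in the control for AMB (-1.07 ± 0.12, edgeR adjusted p = 4.9e-05). In the AMB-LF libraries it had 633, 688 and 782.5 CPM, against 1484, 1397 and 1595 CPM in the control for AMB-LF (-1.08 ± 0.13, edgeR adjusted p = 0.00013). Its level fell by about the same amount under both treatments, the difference between the 2 responses being -0.02 (95% interval -0.42 to 0.39), and it kept its call under all alternatives. GPD1 (YDL022W) fell by 0.41 ± 0.11 on the log2 scale under AMB-LF (edgeR adjusted p = 0.02), a call lost in 7 of 25 alternatives, among them those without AMB-LF replicate 1 (-0.22) and without control replicate 1 for AMB, and gave 0.04 ± 0.10 under AMB. GPD2 (YOL059W) gave 0.04 ± 0.07 and -0.14 ± 0.08, and GPP2 (YER062C) -0.09 ± 0.13 and -0.41 ± 0.15, none of which passed. GPP1 made up 58.4% ± 4.2 of the 2 phosphatases per kilobase under AMB, against 73.4% ± 1.7 in the control for AMB, and 57.2% ± 1.5 under AMB-LF, against 67.9% ± 1.3 in the control for AMB-LF.

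The upstream sequences were searched for 3 short motifs known from glycolytic and stress genes. These were CTTCC, the core bound by the glycolytic activator Gcr1, CACCCA, the core within the site of its partner Rap1, and AGGGG, the stress response element, on both strands of the 500 bases before the start codon. CTTCC was found in 25 of 35 members (71.4%) and 66.1% of the 6000 nuclear protein-coding genes, CACCCA in 7 (20% and 14.1%), and AGGGG in 20 (57.1% and 34.1%). 4 AGGGG matches, in PYC1, GPD1 and GPD2, overlapped a CTTCC match. The stretch from 500 to 201 bases before the start codon is printed for TDH1, TDH2 and ENO1, which fell under both treatments, and for PYC2, which rose, with matches of CTTCC and of CACCCA on either strand in capitals.
TDH1 chrX:337771-338070 (plus strand): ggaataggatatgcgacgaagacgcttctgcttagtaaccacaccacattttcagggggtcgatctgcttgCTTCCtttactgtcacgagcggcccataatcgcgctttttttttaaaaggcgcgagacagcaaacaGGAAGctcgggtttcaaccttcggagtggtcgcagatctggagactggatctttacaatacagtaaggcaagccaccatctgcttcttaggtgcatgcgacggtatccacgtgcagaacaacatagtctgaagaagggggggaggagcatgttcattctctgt
TDH2 chrX:454882-455181 (minus strand): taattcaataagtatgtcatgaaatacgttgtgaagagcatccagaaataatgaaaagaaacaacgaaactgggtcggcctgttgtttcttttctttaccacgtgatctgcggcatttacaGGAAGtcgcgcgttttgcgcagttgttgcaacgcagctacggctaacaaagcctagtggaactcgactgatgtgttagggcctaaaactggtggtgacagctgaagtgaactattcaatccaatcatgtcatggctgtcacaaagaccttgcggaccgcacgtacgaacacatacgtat
ENO1 chrVII:1000427-1000726 (plus strand): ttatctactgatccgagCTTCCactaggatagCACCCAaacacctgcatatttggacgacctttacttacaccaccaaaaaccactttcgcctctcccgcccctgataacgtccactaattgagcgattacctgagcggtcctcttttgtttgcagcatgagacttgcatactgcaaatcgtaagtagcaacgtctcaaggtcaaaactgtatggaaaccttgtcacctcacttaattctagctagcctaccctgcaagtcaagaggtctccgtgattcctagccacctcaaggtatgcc
PYC2 chrII:662450-662749 (minus strand): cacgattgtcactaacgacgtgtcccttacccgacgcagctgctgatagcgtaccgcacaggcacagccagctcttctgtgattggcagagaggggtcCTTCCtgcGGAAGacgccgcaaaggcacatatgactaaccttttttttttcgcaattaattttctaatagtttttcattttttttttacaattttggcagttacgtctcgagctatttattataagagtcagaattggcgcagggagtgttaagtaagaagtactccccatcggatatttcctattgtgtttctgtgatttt
ENO1 had CTTCC 483 and CACCCA 468 bases before its start codon, close to each other, TDH1 had CTTCC matches at 429 and 363 bases, and TDH2 at 379 and 141 bases. PYC2 had 3 CTTCC matches, at 402, 394 and 130 bases. TDH3, which did not pass, and GPP1, which fell, had none of the first 2 motifs in these 500 bases. Matches were thus present and absent among members that fell as well as among members that did not pass.

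The difference between the 2 responses was tested directly as AMB-LF minus its control against AMB minus its control. Of 34 members 7 passed, all with a lower value under AMB-LF (20.6% of members, against 7.46% of all genes; 0 passed with a higher value, against 10.1% of all genes). They were TDH1 (-1.81 ± 0.26, edgeR adjusted p = 0.019), ENO1 (-1.44 ± 0.35, 0.023), HXK1 (-0.91 ± 0.26, 0.038), GLK1 (-0.80 ± 0.23, 0.034), PYK2 (-0.74 ± 0.18, 0.023), GPM2 (-0.55 ± 0.14, 0.025) and PYC1 (-0.39 ± 0.11, 0.033), with the adjusted p of the edgeR test after each SE. TDH2 (-0.10 ± 0.30), GPP1, PDC1 (-0.12 ± 0.25) and PYC2 (0.30 ± 0.17) did not pass. All 7 calls were lost when control replicate 1 for AMB was left out, when AMB-LF replicate 1 was left out, in the lane 1 libraries alone and with the replicate block, fitted although the numbers of these libraries do not pair them. In those 4 fits hardly any of the 5456 genes was called (0, 0, 4 and 6 in the same order). The values stayed below 0 for all 7, for example between -1.88 and -0.92 for ENO1, between -1.08 and -0.51 for PYK2 and between -0.64 and -0.47 for GPM2 with any 1 library left out. With the controls exchanged all 7 changed sign. The exchange uses the same 4 groups and only turns the sign of the part that comes from the controls. It is therefore no separate check of the difference.

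The treated cultures were also compared directly. Between AMB-LF and AMB 0 of 34 members passed in either direction (edgeR, against 0.0183% of all genes higher and 0.312% lower), 2 members had an unadjusted p under 0.05 (PCK1 with -0.71 ± 0.21 and GPP1 with -0.31 ± 0.12), and DESeq2 also called 0, with 4 members at an unadjusted p under 0.05. Over all 5456 genes 386 had an unadjusted p under 0.05 in edgeR and 340 in DESeq2. The AMB-LF and AMB cultures were harvested at 50 and 60 minutes, so treatment and time cannot be told apart. The untreated groups, in contrast, differed in 11 members: in the control for AMB-LF 9 were higher and 2 lower than in the control for AMB (edgeR, 15.2% and 16.6% of all genes). TDH1 was higher by 1.56 ± 0.18 on the log2 scale (edgeR adjusted p = 0.0016), ENO1 by 1.25 ± 0.23, HXK1 by 0.81 ± 0.18, GLK1 by 0.74 ± 0.16, EMI2 by 0.73 ± 0.15, PYK2 by 0.68 ± 0.12, GPM2 by 0.52 ± 0.10, PFK26 by 0.51 ± 0.12 and PYC1 by 0.27 ± 0.07, while PYC2 (-0.48 ± 0.12) and ICL1 (-0.36 ± 0.11) were lower. All 7 members of the difference between the responses were among these 9. The size of the log2 ratio of group means was 0.09 at the median over 34 members between AMB-LF and AMB, and at most 0.72 (PCK1), and 0.23 between the controls, and at most 1.60 (TDH1). The comparisons share their groups, so these values describe the 4 groups and are not separate evidence. Because harvest time, lane and control group go together in the control for AMB-LF, they cannot be told apart there.

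**Figure D4:**
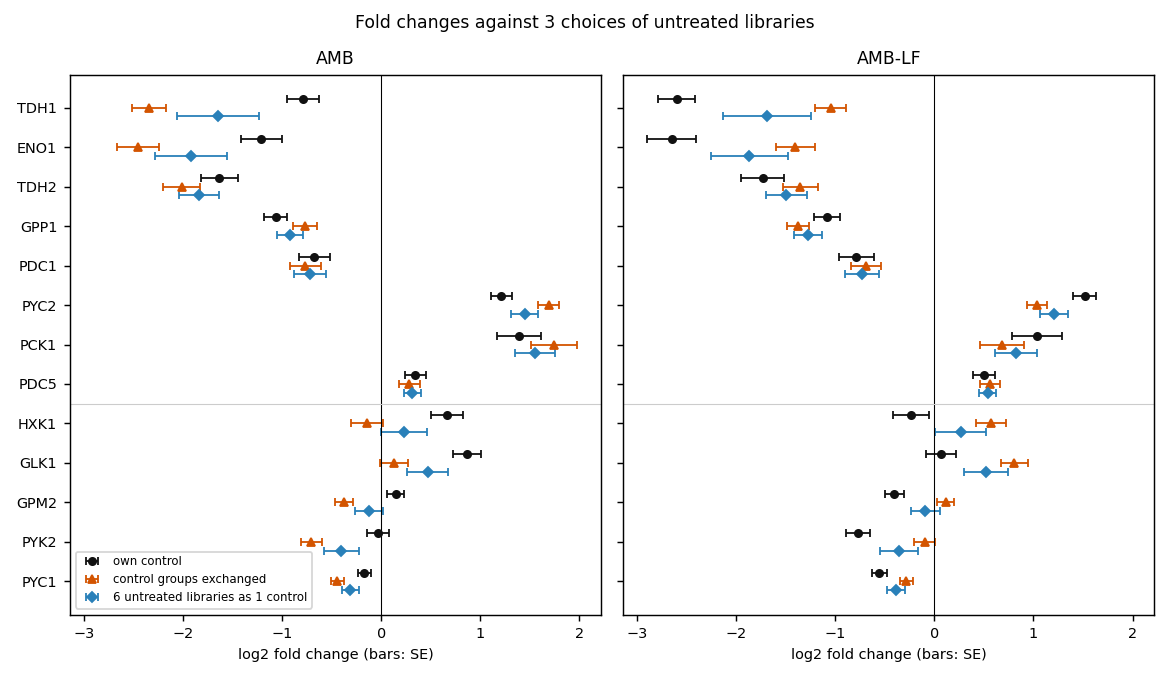
Log2 fold change under AMB (left) and AMB-LF (right) of 13 members against their own control, with the 2 control groups exchanged, and against the 6 untreated HiSeq libraries as 1 control; bars are standard errors. The 8 members above the grey line were called under both treatments and keep their side of 0 with every control, while HXK1 moves between 0.67 and -0.14 under AMB and between -0.24 and 0.57 under AMB-LF.

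With the controls exchanged 3 members were called higher and 14 lower under AMB (16.8% and 18.5% of all genes), and 6 higher and 6 lower under AMB-LF (16.5% and 16% of all genes). With the 6 untreated libraries as 1 control the counts were 3 and 8 for AMB (12.8% and 11.3% of all genes) and 3 and 6 for AMB-LF (10.1% and 7.53% of all genes). TDH1, TDH2, ENO1, PDC1, GPP1, PYC2 and PCK1 were called with every choice of control under both treatments. For example, ENO1 gave -2.46 (exchanged) and -1.92 (pooled) under AMB, and -1.40 and -1.87 under AMB-LF in the same order.

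Under LF 0 of 34 members rose and 0 fell in the edgeR test, against 0% of the 5445 genes tested in each direction. No member had an unadjusted p under 0.05 (0 of 34), and DESeq2 also called 0. The log2 fold changes lay between -0.26 (ENO1) and 0.13 (ICL1). The LF libraries were not above or below all controls for any member but PDC5, which had 26.1 to 26.5 CPM under LF and 23.7 to 26.0 CPM in its control (1 of 34 members, 2.96% of all genes). The 95% intervals were wide where days differed, from -2.55 to 2.09 for TDH1. The LF replicates were grown on separate days, each beside a control of the same number, and with the replicate number as a block the log2 fold changes lay between -0.27 and 0.11 with standard errors of 0.04 to 0.09. In that blocked fit 0 members passed and 2 of 34 had an unadjusted p under 0.05, as had 418 of the 5445 genes. The smallest adjusted p was 0.53 (edgeR; ENO1, -0.27 ± 0.09), and TDH1 gave -0.22 ± 0.09. The same members that fell most under AMB-LF had blocked values no lower than -0.27 on the log2 scale under LF, measured on another platform and with another library kit.

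Between days the members differed more. Of 34 members 7 had at least a 2-fold ratio between the highest and the lowest day (mean of LF and control), of which 6 were highest in replicate 3. This count was not made over all genes, so whether the members stand out in it cannot be said. TDH1 had 217, 310.5 and 1348 CPM in LF replicates 1, 2 and 3, against 208, 441 and 1550 CPM in control replicates 1, 2 and 3, a 6.82-fold ratio between days. HXK1 had 432, 361.5 and 1375 CPM under LF, against 418, 495 and 1560 CPM in the control, ENO1 had 965, 691 and 2109 CPM under LF, against 989, 984 and 2523 CPM in the control, and GLK1 had 483, 435 and 1203 CPM under LF, against 398, 502 and 1243 CPM in the control. Treated and untreated cultures of a day moved together. TDH2 instead was highest in replicate 1, with 3349, 1561 and 2599 CPM under LF, against 3334, 1500 and 2667 CPM in the control. The 7 were TDH1, HXK1, GLK1, ENO1, PCK1, TDH2 and GPM2, of which 5 (TDH1, HXK1, GLK1, ENO1 and GPM2) also passed in the difference between the AMB-LF and AMB responses, a description with no test. Of 34 members 6 kept 1 sign of the LF-to-control ratio on all 3 days, which was likewise not counted over all genes.

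**Figure D5:**
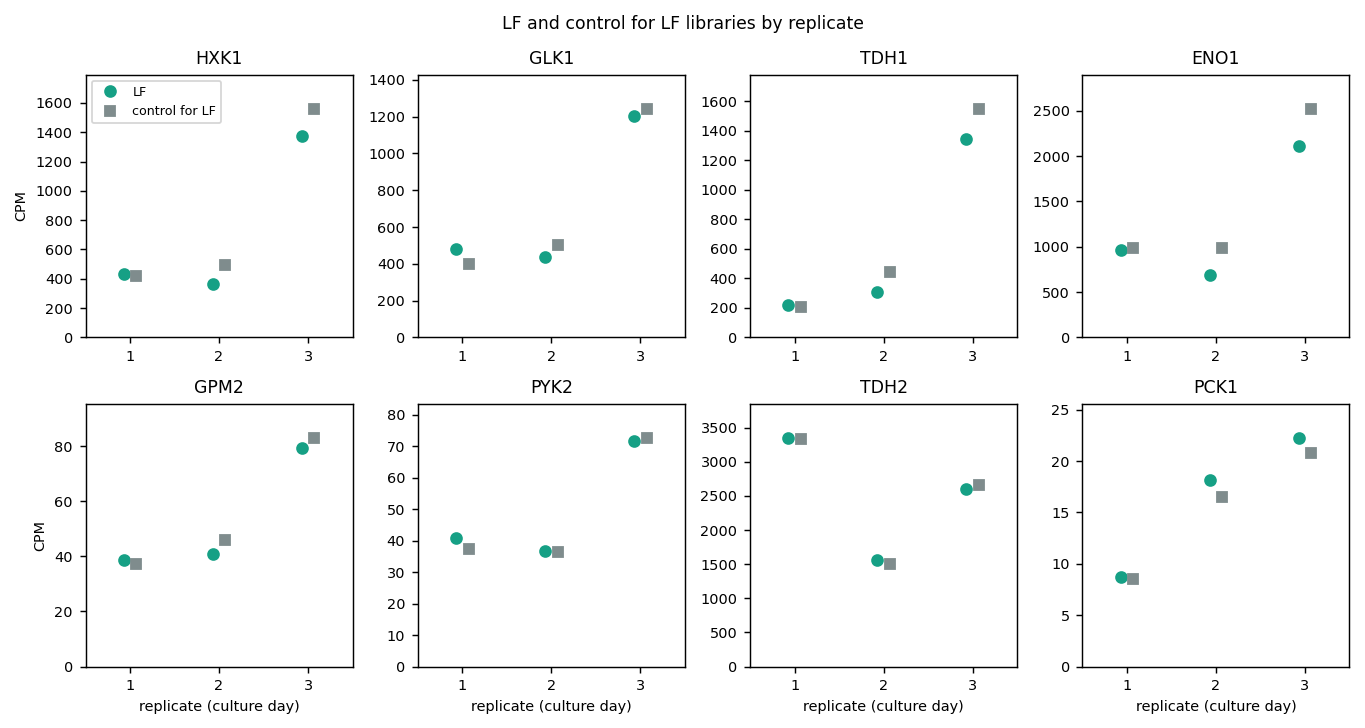
CPM of 8 members in the LF (circles) and control for LF (squares) libraries by replicate, each replicate being 1 culture day; axes start at 0. LF and control points of a day lie close together, and in replicate 3 TDH1 stands at 1348 CPM (LF) and 1550 CPM (control), against 208 to 441 CPM on the other days.

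Summed over all 35 genes, the members took 7.85% ± 0.46 of the counts under AMB (SD, n = 3), against 8.98% ± 0.37 in the control for AMB, and 7.96% ± 0.92 under AMB-LF, against 11.4% ± 0.40 in the control for AMB-LF. Under LF they took 7.67% ± 1.45, against 7.69% ± 1.38 in its control. Lower glycolysis made up most of this, with 4.18% of counts under AMB, against 4.74% in its control, and 4.23% under AMB-LF, against 6.57% in its control. In bulk RNA a change in the RNA of each cell and a change in the share of cells that express a gene cannot be told apart. Per kilobase of coding sequence the order of levels under AMB was led by TDH3 (25309 CPM per kilobase), FBA1 (10872), TPI1 (8103), ENO2 (5507) and PDC1 (3687), and the same 5 genes led in the control for AMB. TDH2 ranked 13 under AMB and 6 in the control for AMB, and PYC2 ranked 20 and 23.

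Other genes of the pathway were read from lists of regulators and neighbouring steps, beside 18.7% of all genes called higher and 18.4% lower under AMB, and 14.1% and 15.1% under AMB-LF. Of 5 glycolytic regulators GCR1, the activator that binds CTTCC, fell by 0.39 ± 0.07 under AMB and by 0.77 ± 0.08 under AMB-LF on the log2 scale, TYE7 fell by 0.35 ± 0.08 and by 0.57 ± 0.09, and RAP1 rose by 0.31 ± 0.07 under AMB-LF, with edgeR adjusted p between 3.4e-05 and 0.0095. Of 10 gluconeogenic regulators 3 rose and 3 fell under AMB, and 1 rose and 3 fell under AMB-LF. Exchanging the controls gave 1 higher and 4 lower under AMB, and 4 higher and 2 lower under AMB-LF. Between AMB-LF and AMB 1 of these regulators was higher, the only gene called higher there of the 5456 tested. SIP4, an activator of gluconeogenic genes, rose by 1.40 ± 0.12 under AMB and 1.11 ± 0.14 under AMB-LF, and the glucose repressors MIG2 (-0.68 ± 0.14 and -0.70 ± 0.15) and MIG3 (-0.78 ± 0.15 and -0.64 ± 0.16) fell under both. These genes were picked from the list, and other regulators called are not named here. Over all 10 gluconeogenic regulators the median log2 fold change was 0.11 under AMB and 0.02 under AMB-LF, so the list does not move as a whole. The GID ubiquitin ligase, which marks gluconeogenic enzymes for degradation when glucose returns, rose in 7 of its 8 genes under AMB, by 0.34 to 0.47, and in 1, VID24 (0.54 ± 0.12), under AMB-LF. The count turned with the control: with the controls exchanged 1 GID gene was higher and 1 lower under AMB and 5 were higher under AMB-LF, and with the pooled control 4 were higher under AMB and 1 under AMB-LF, alternatives that were added for these lists after the data were seen. In addition 4 GID genes were higher in the control for AMB-LF, set against the control for AMB, 0 passed between AMB-LF and AMB, and 2 (FYV10 and UBC8) passed in the difference between the responses. Of 10 genes of glycerol use, transport and regulation 4 rose and 0 fell under AMB, among them GUT2 (0.54 ± 0.09). Under AMB-LF 1 of the 10 rose and 2 fell. These counts depended on the control as well. Exchanged controls gave 1 higher and 1 lower under AMB, and 3 higher and 0 lower under AMB-LF. The pooled control gave 2 and 0 under AMB, and 2 and 1 under AMB-LF. Of 16 neighbouring carbon enzymes tested 6 rose and 1 fell under AMB, and 2 rose and 4 fell under AMB-LF, with the transaldolase NQM1 at -1.17 ± 0.23 and -1.99 ± 0.27. With the controls exchanged 2 of these 16 were higher and 4 lower under AMB, and 5 higher and 1 lower under AMB-LF. In the control for AMB-LF 6 of them were higher, set against the control for AMB, and between AMB-LF and AMB 0 passed. Under LF 0 genes of these lists passed.

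The genes whose levels followed a member most closely over the 12 HiSeq libraries were listed for the member with the largest change per treatment. For TDH2 these were HCH1 (Pearson r = 0.985), PCS60 (0.983), CYS3 (0.980), SAM2 (0.976) and YRB2 (0.974) on log2 CPM. For ENO1 they were OPI3 (0.983), THO1 (0.981), UBC4 (0.974), TDH1 (0.973) and GPG1 (0.971). TDH1 was thus the only member among these 10, and the 12 libraries share lanes and 4 groups, so that r is a description.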

How the data were processed

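RNA-seq of 18 cultures was analysed. The authors trimmed and mapped the reads to the R64 genome and counted them on coding sequences with HTSeq (version 0.5.3p9) without regard to strand, leaving out ambiguous overlaps, so that the deposited table holds unnormalised counts, 1 row per gene. HiSeq libraries had 100-base paired reads and NextSeq libraries 75-base single reads from a different kit, so they were fitted apart. Gene names were matched for 6008 of 6692 identifiers, and the rest held 0.3% of counts.

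Counts were fitted in edgeR (version 4.0.16, R version 4.3.3) with TMM factors and the quasi-likelihood test, for genes with at least 7 CPM in 6 HiSeq or 3 NextSeq libraries, with a lane term for HiSeq. Genes with a Benjamini-Hochberg adjusted p under 0.05 over all genes tested were called. CPM are TMM-scaled, ± after a log2 fold change is its SE, and 95% intervals use the t quantile of the fit. The procedure was tested on simulated data. Alternatives were the likelihood ratio test, DESeq2 (version 1.42.0), other scaling and filters, no lane term, single lanes, the replicate block, each library left out, and the controls exchanged or pooled.

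The members and lists were chosen with earlier results of these data known. Members were described in every library where they were called with a log2 fold change of at least 1 in size, were called in the difference between responses, or had the largest change of their role; those called otherwise are given more briefly. Same-numbered LF and control libraries pair (correlations of deviations 0.882, 0.77 and 0.945, replicates from different days per the study's caption). Under AMB these correlations were -0.274, -0.512 and -0.285, under AMB-LF -0.331, -0.109 and 0.0403, so there the samples share only a number.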

Additional observations from a re-analysis of the deposited data

Results flagged for a closer look

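For 7 members the response to AMB-LF differed from the response to AMB by a test of the difference itself in the edgeR fit. The log2 difference (AMB-LF response minus AMB response) was -0.91 for HXK1, -0.8 for GLK1, -1.81 for TDH1, -0.55 for GPM2, -1.44 for ENO1, -0.74 for PYK2 and -0.39 for PYC1. All 7 also differed between the untreated groups, with higher levels in the untreated group of AMB-LF, and all 7 differences changed sign with the controls exchanged. The exchange only turns the sign of the part that comes from the controls, so these statements are not separate evidence. Groups of 3 libraries were too small to be tested for a library far from the others.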

How the results depend on the processing

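Counts of called members are given as higher and lower. For AMB (6 and 6) they were 2 and 2 in lane 1 and 3 higher in lane 2, 3 and 14 with the controls exchanged, 3 higher with the pooled control, and 4 to 6 and 4 to 8 with 1 library left out. For AMB-LF (4 and 12) they were 2 and 7 in lane 1, 7 lower with its 6 libraries alone, 6 lower with exchanged and 6 with pooled controls, 2 higher with the replicate block, and 1 to 4 and 6 to 15 with 1 library left out, the lowest without AMB-LF replicate 1. For the difference (0 and 7) they were 2 higher without the lane term, 8 and 3 with the controls exchanged, 0 lower in lane 1 and with the replicate block, and 0 to 1 and 0 to 9 with 1 library left out. For the controls (9 and 2) they were 4 and 0 in lane 1, 1 lower by library size only and with the replicate block, and 4 to 10 and 1 to 2 with 1 library left out. Fewer of all 5456 genes were called in several of these fits as well. For AMB-LF 770 were higher and 825 lower in the main fit, against 321 and 212 with its 6 libraries alone. The same counts were 541 and 476 with the replicate block, and 301 and 172 without AMB-LF replicate 1. With the controls exchanged the sign turned for 11 of 34 members under AMB, 8 under AMB-LF and 26 in the difference. Of these, those called with at least 1 of the choices of control were, under AMB, HXK1 (-0.14), EMI2 (-0.72), PFK26 (-0.13), GPM2 (-0.38) and ICL1 (0.36), of which EMI2 and ICL1 were within 0.01 of 0 with their own control, under AMB-LF HXK1 (0.57), EMI2 (0.17), PFK26 (0.40) and GPM2 (0.11), and in the difference HXK1 (0.71), GLK1 (0.68), EMI2 (0.89), PFK26 (0.53), TDH1 (1.30), GPM2 (0.49), ENO1 (1.05), PYK2 (0.61), PYC1 (0.16) and PYC2 (-0.66). The cause of these changes was not tested. In the difference, the exchange only turns the sign of the part that comes from the controls, so a turn there is no separate check. The LF count stayed at 0 under every alternative run, the replicate block included. Counting error was 1.25% of the count at the median over the tested members in the HiSeq libraries, and up to 13.9% for MLS1 at 52 counts.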
